A study of Mus musculus with 9 samples.

Results

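Messenger RNAs for iron storage, transport and heme recycling were examined in livers of mice treated with an antisense oligonucleotide (ASO) against apoC-III. The group was 10 genes chosen by symbol, all 10 of which were found among the 51912 genes listed and among the 21857 nuclear protein-coding genes. They were the ferritin chains *Fth1* and *Ftl1*, the iron exporter *Slc40a1*, transferrin (*Trf*) and its receptor (*Tfrc*), hemopexin (*Hpx*), ceruloplasmin (*Cp*), heme oxygenase 1 (*Hmox1*) and the iron regulatory proteins *Aco1* and *Ireb2*. The rule read the symbols alone, and the genes were chosen with earlier results of these data known.

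Liver RNA came from 9 fasted mice, of which 5 had received apoC-III ASO and 4 a control ASO, both by intraperitoneal injection at 50 mg/kg/week for 8 weeks. All 9 mice, the controls included, were Apoe-/-Ndst1f/fAlb-Cre+ on the C57Bl/6 background. They lacked apoE in every tissue. The albumin promoter, active in hepatocytes, drove Cre, and the paper describes the loss of the heparan sulfate enzyme NDST1 as specific to the liver. Which liver cells lost NDST1 was not tested here. No liver with intact *Apoe* or *Ndst1* and no liver without an ASO was part of the comparison, and the diet and age of these mice are not given in the sources used here. The question here was whether suppression of apoC-III went along with a difference in the liver's iron and heme transcripts.

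Hepatocytes hold much of the body's iron in ferritin, a shell of heavy and light chains, and secrete transferrin, which carries iron in plasma, together with ceruloplasmin and hemopexin. Ferroportin, the product of *Slc40a1*, releases iron from hepatocytes and from the liver macrophages that take up old red cells, and the liver hormone hepcidin removes ferroportin from the cell surface. Much of this control acts on messenger RNA. When iron is scarce, the iron regulatory proteins bind a hairpin, the iron-responsive element, and block translation where it lies in the 5′ UTR or protect the transcript where it lies in the 3′ UTR.

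The hairpins are shown because this element is how the regulatory proteins recognize a transcript. A search of GENCODE M21 transcripts (GRCm38) for the letters CNNNNNCAGTGN, with all 5 bases after the bulged C paired with the 5 bases after the 6-base loop and G-T pairs allowed, was made on the transcript strand only. It found the hairpin in the 5′ UTR of *Fth1*, *Ftl1* and *Slc40a1* and 4 copies in the 3′ UTR of *Tfrc*, and in no other of the 10 genes. Capitals mark the bulged C and the loop, and sequences run 5′ to 3′ on the strand of the gene.
Fth1, chr19:9982732-9982760, plus strand, 5′ UTR: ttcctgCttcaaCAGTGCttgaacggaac
Ftl1, chr7:45459779-45459807, minus strand, 5′ UTR: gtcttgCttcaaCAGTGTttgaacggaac
Slc40a1, chr1:45925465-45925493, minus strand, 5′ UTR: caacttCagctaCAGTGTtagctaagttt
Tfrc, chr16:32631219-32631247, plus strand, 3′ UTR: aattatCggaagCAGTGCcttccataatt
Tfrc, chr16:32631598-32631626, plus strand, 3′ UTR: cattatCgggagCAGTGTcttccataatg
Tfrc, chr16:32631663-32631691, plus strand, 3′ UTR: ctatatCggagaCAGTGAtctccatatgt
Tfrc, chr16:32631710-32631738, plus strand, 3′ UTR: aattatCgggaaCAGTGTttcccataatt
Such a hairpin was found in the 5′ UTR of 31 of 20486 genes (0.151%) and in the 3′ UTR of 128 of 20884 genes (0.613%). A match describes the letters and their pairing and is no evidence of binding in these livers.

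The deposited values are TPM, in which each transcript is scaled by its length and every library to the same total. TPM keeps no read depth, so the number of reads behind a value is unknown. Nuclear protein-coding genes held 1.94% to 8.64% of the TPM of a liver. Levels are therefore given as rescaled TPM: the protein-coding genes of each liver were set to a total of 1000000 and divided by a median-of-ratios factor. Control ASO replicate 4 stood apart, with the lowest protein-coding share (1.94%, against 3.04% to 8.64% in the other 8) and a factor of 0.496 (others 0.930 to 1.44), so results that rest on it are given with and without it. *Apoc3*, the target, was at 450 ± 112 rescaled TPM (mean ± SD, n = 5) with apoC-III ASO and 3577 ± 493 (n = 4) with control ASO, a level 87.4% lower (p = 0.0159 by an exact permutation test, two-sided, which 5 against 4 livers cannot go below). Transcripts of the deleted genes were still listed, *Apoe* at 36.1 ± 11.0 and 50.8 ± 19.4 rescaled TPM and *Ndst1* at 10.1 ± 1.44 and 8.52 ± 2.73 with apoC-III and control ASO. Hepatocyte markers (8 of 8 detected) summed to between 28110 and 63810 with apoC-III ASO and between 43600 and 50430 with control ASO. Erythroid markers (7 in the file, 4 past the filter) summed to 922 in apoC-III ASO replicate 4 and 2156 in control ASO replicate 4, and to 37.8 to 193 in the other livers.

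None of the 10 genes passed the test for a difference between the groups, which was a Benjamini-Hochberg adjusted p under 0.05 with a change over 1.5-fold in limma across all 11968 genes with a mean of at least 1. Over all genes that test called 2, *Apoc3* and *Anpep* (0.0167%). Ferritin heavy chain, ferritin light chain and ferroportin had the largest differences of the 10, each with a higher mean under apoC-III ASO and an unadjusted p under 0.05. Those 3 of 10 compare with 5.57% of all genes under that p, of which 359 had a higher and 308 a lower mean. Because the 10 genes were chosen with earlier results of these data known, this comparison is a description and no test of the group. Of the 10 genes 5 had a higher and 5 a lower mean, and the median log2 fold change was -0.04, against -0.00 over all genes. In 0 of the 10 did the groups separate without overlap, which 1.83% of all genes did.

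**Figure D1:**
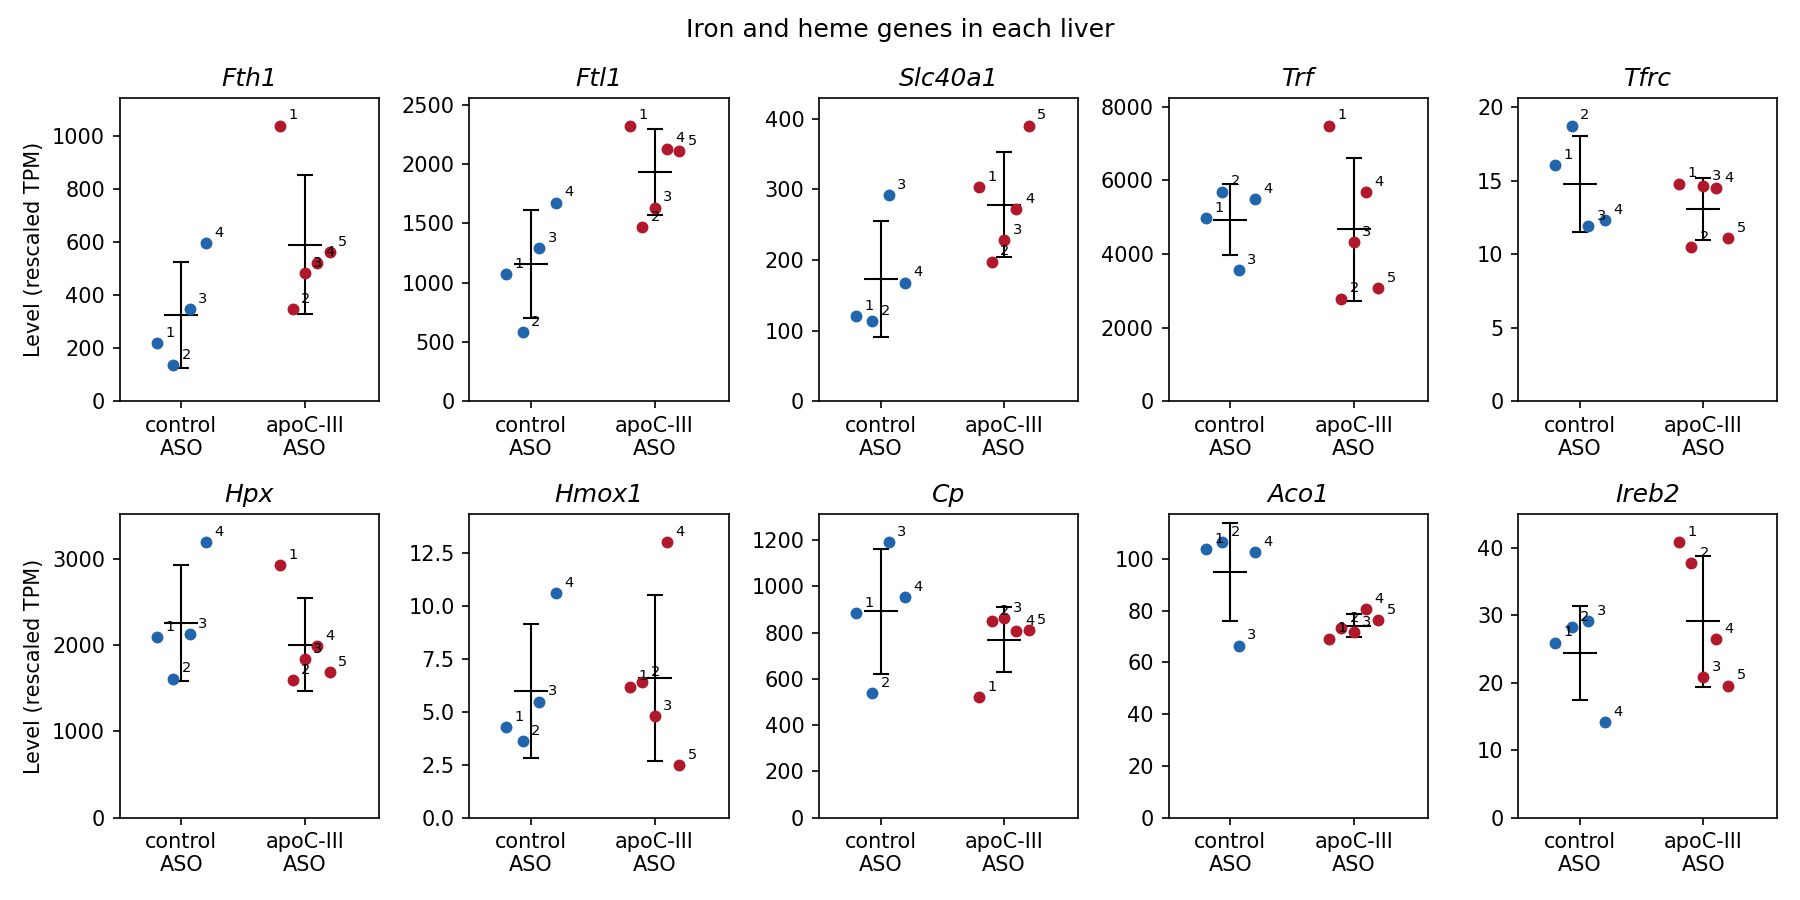
Level of each of the 10 genes in rescaled TPM (linear axis from 0) in 4 control ASO livers (blue) and 5 apoC-III ASO livers (red), with replicate numbers beside the points and bars giving mean ± SD. The groups overlap in all 10 panels, and in the *Fth1*, *Ftl1* and *Slc40a1* panels all red points lie above 3 of the 4 blue points.

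The 10 levels spanned a wide range, which TPM allows to be compared because it is per length. *Trf* was the most abundant, at rank 19 of the 11968 genes, followed by *Hpx* (39), *Ftl1* (61), *Cp* (102), *Fth1* (176) and *Slc40a1* (372). *Aco1* ranked 1156, *Ireb2* 3455, *Tfrc* 5490 and *Hmox1* 7953. The secreted carriers and the storage chains thus lay far above the regulators, the uptake receptor and the heme-degrading enzyme. Neighbours in this order kept it in 9 of 9 livers except *Hpx* above *Ftl1* (7 of 9) and *Cp* above *Fth1* (8 of 9).

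*Fth1* (chr19:9980598-9985098) encodes the ferritin heavy chain, which oxidizes iron as it enters the shell. Its level was 1038, 347, 483, 522 and 561 rescaled TPM in apoC-III ASO replicates 1 to 5 and 219, 137, 347 and 595 in control ASO replicates 1 to 4. Replicate 1 of the apoC-III ASO group was the highest liver, and control ASO replicate 4 exceeded 4 of the 5 treated livers, whereas the other 3 controls lay below every treated one, control ASO replicate 3 by less than 1 rescaled TPM. The means were 590 ± 263 (n = 5) and 325 ± 200 (n = 4), a log2 fold change of 0.97 ± 0.42 (SE) with a 95% confidence interval of 0.06 to 1.89 (limma, unadjusted p = 0.039, adjusted p = 0.876). Without control ASO replicate 4 the difference was 1.33 (unadjusted p = 0.0051) and the groups did not overlap. Without control ASO replicate 2, the lowest liver, it was 0.63 (unadjusted p = 0.143).

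*Ftl1* (chr7:45457944-45459884) encodes the light chain, which helps form the mineral core. It was at 2324, 1468, 1633, 2129 and 2111 rescaled TPM with apoC-III ASO and at 1071, 586, 1290.5 and 1676 with control ASO. As for *Fth1*, control ASO replicate 2 was the lowest liver, and control ASO replicate 4 lay within the treated range while the other 3 controls lay below it. The means of 1933 ± 364 and 1156 ± 455 gave a log2 fold change of 0.82 ± 0.31 (95% interval 0.15 to 1.49, limma, unadjusted p = 0.021, adjusted p = 0.860). The difference was 1.03 (unadjusted p = 0.0057), with no overlap, without control ASO replicate 4 and 0.53 (unadjusted p = 0.077) without control ASO replicate 2.

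The *Ftl1* value is uncertain because the gene shares sequence with a near-identical copy, *Ftl1-ps1*, which the annotation counts as protein-coding and which carries the same type of 5′ hairpin. The copy took 14.8% to 33.7% of the summed TPM of both in 8 livers and 71.4% in control ASO replicate 4. With *Ftl1* and its copies summed, the log2 fold change was 0.85 (limma, unadjusted p = 0.243) on TPM as deposited and 0.52 (unadjusted p = 0.296) on rescaled TPM, the latter sum being added after the data had been seen. *Ftl1* and *Ftl1-ps1* together reached 1928 to 3212 rescaled TPM with apoC-III ASO and 5855 in control ASO replicate 4, and the other controls lay at 826 to 1924, so that 1 control liver was the highest of all and the other 3 were the lowest. *Fth1* hardly moved when summed with its listed copies (0.96, unadjusted p = 0.038).

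*Slc40a1* (chr1:45908068-45926523) encodes ferroportin, the exporter through which iron leaves cells. Its level was 304, 198, 228, 272 and 390 rescaled TPM with apoC-III ASO and 120, 113, 292 and 168 with control ASO. All treated livers lay above 3 of the 4 controls, and only control ASO replicate 3 fell among them. The means of 278 ± 74.6 and 173 ± 82.5 gave a log2 fold change of 0.75 ± 0.31 (95% interval 0.07 to 1.42, limma, unadjusted p = 0.033, adjusted p = 0.876). It was 1.03 (unadjusted p = 0.0036), with no overlap, when control ASO replicate 3 was left out and 0.58 (unadjusted p = 0.106) without control ASO replicate 2. Macrophages also express ferroportin, and the 8 macrophage markers, 7 of which passed the filter, summed to 74.6 to 106.5 with apoC-III ASO and 68.8 to 117 with control ASO, ranges that overlapped almost fully. In whole liver RNA, fewer cells of a type and less RNA per cell cannot be told apart.

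For these 3 genes the p depended on single livers. The number of the 10 genes with an unadjusted p under 0.05 was 0 without control ASO replicate 2, 1 without apoC-III ASO replicate 1, 4 or 5 or control ASO replicate 1, and 4 without control ASO replicate 3. On TPM as deposited it was 0 of the 8 genes that could be tested, with unadjusted p between 0.065 and 0.133 for *Fth1*, *Ftl1* and *Slc40a1* and differences of 1.23, 1.13 and 0.92.

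**Figure D2:**
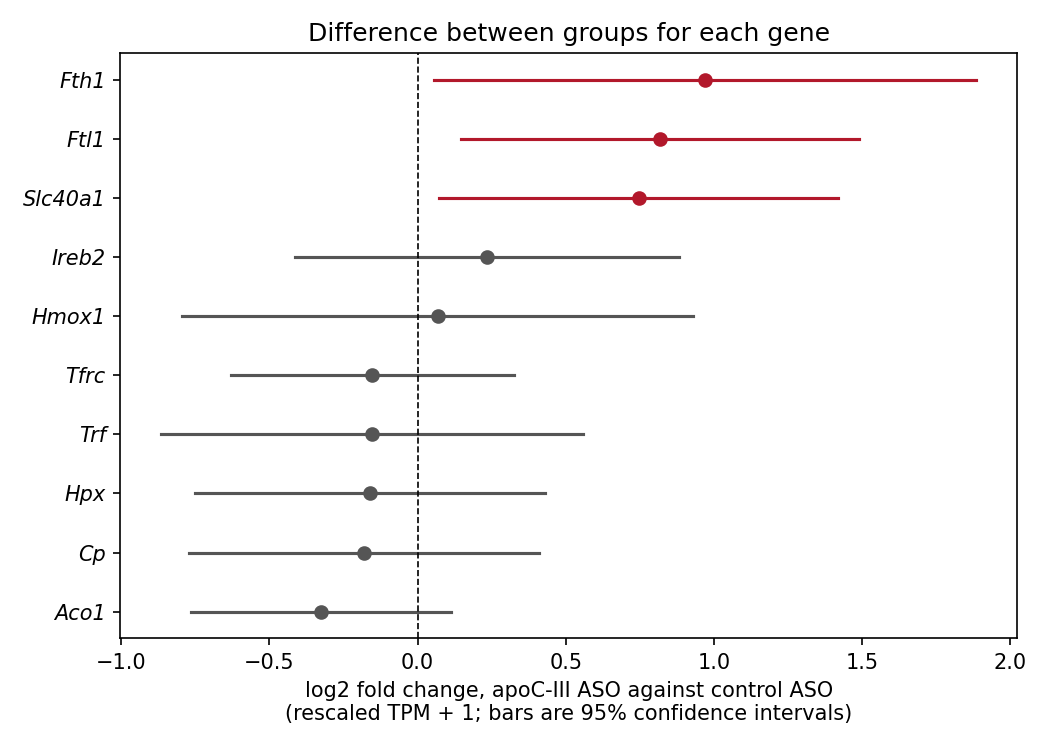
Log2 fold change of apoC-III ASO against control ASO for each of the 10 genes (points) with its 95% confidence interval (bars), from the limma fit on log2(rescaled TPM + 1). Red marks the 3 genes with an unadjusted p under 0.05, whose intervals lie above 0, and the other 7 intervals include 0.

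Iron supply and uptake transcripts were close in mean, and the spread of *Trf* was wide under apoC-III ASO. *Trf* (chr9:103204001-103230444), the plasma iron carrier, was at 7492, 2788, 4320, 5693 and 3085 rescaled TPM with apoC-III ASO and 4977, 5700.5, 3563 and 5492 with control ASO. The treated livers held both the highest and the 2 lowest values. The log2 fold change was -0.15 (95% interval -0.87 to 0.56, limma, unadjusted p = 0.647).

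*Tfrc* (chr16:32608920-32632794), transferrin receptor 1, carries the 4 hairpins in its 3′ UTR through which the regulatory proteins protect the transcript when iron is scarce. It was at 14.8, 10.5, 14.6, 14.5 and 11.1 rescaled TPM with apoC-III ASO and at 16.1, 18.7, 11.9 and 12.3 with control ASO. The 2 highest livers were controls and the 2 lowest were treated, but the groups overlapped between them. The difference was -0.15 on the log2 scale (95% interval -0.63 to 0.33, unadjusted p = 0.498 in limma), and the deposited values averaged under 1 TPM in both groups.

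*Cp* (chr3:19957054-20009145) encodes ceruloplasmin, the copper enzyme of plasma that oxidizes iron released by ferroportin. It was at 520, 850, 862, 806 and 811 rescaled TPM with apoC-III ASO and 885, 540, 1193 and 953 with control ASO. In each group 1 liver lay well below the others, apoC-III ASO replicate 1 and control ASO replicate 2. The log2 fold change was -0.18 (95% interval -0.77 to 0.41, limma, unadjusted p = 0.515).

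*Hpx* (chr7:105591613-105600137), hemopexin, binds free heme in plasma and returns it to hepatocytes. It was at 2927, 1592, 1842, 1991 and 1686 rescaled TPM with apoC-III ASO and 2091, 1614, 2129 and 3201 with control ASO. The highest liver of each group, apoC-III ASO replicate 1 and control ASO replicate 4, lay well above the rest of its group. The log2 fold change was -0.16 (95% interval -0.75 to 0.43, limma, unadjusted p = 0.563) and 0.02 without control ASO replicate 4.

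*Hmox1* (chr8:75093621-75100589) encodes the inducible enzyme that opens the heme ring and frees its iron. It was the least abundant of the 10, at 6.18, 6.41, 4.80, 13.0 and 2.49 rescaled TPM with apoC-III ASO and 4.28, 3.60, 5.47 and 10.6 with control ASO. The highest liver of either group was its replicate 4. Those are the same livers in which the erythroid markers summed highest (922 and 2156), and the part of red cell RNA in the *Hmox1* level was not tested. The log2 fold change was 0.07 (95% interval -0.79 to 0.93, limma, unadjusted p = 0.866), 0.09 without both of these livers, -0.19 without apoC-III ASO replicate 4 alone and 0.34 without control ASO replicate 4 alone.

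*Aco1* (chr4:40143081-40198338) encodes iron regulatory protein 1, which serves as cytosolic aconitase when it carries an iron-sulfur cluster. Its level was 69.1, 73.4, 71.7, 80.5 and 76.5 rescaled TPM with apoC-III ASO and 104, 107, 66.5 and 103 with control ASO. The treated livers lay close together, with a coefficient of variation of 5.93%, and 3 of the 4 controls lay above all of them, while control ASO replicate 3 was the lowest liver of all. The log2 fold change was -0.33 ± 0.20 (SE, 95% interval -0.77 to 0.11, limma, unadjusted p = 0.130). Without control ASO replicate 3 it was -0.49 (unadjusted p = 0.032) and the groups did not overlap.

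*Ireb2* (chr9:54863789-54912530) encodes iron regulatory protein 2, whose protein is degraded when iron is plentiful. It was at 40.9, 37.7, 20.8, 26.5 and 19.6 rescaled TPM with apoC-III ASO and 26, 28.3, 29.2 and 14.2 with control ASO. Replicates 1 and 2 of the treated group were the highest, and control ASO replicate 4 was the lowest. The log2 fold change was 0.23 (95% interval -0.41 to 0.88, limma, unadjusted p = 0.444) and 0.0044 (unadjusted p = 0.988) without control ASO replicate 4.

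Livers also differed from one another across genes. ApoC-III ASO replicate 1 was the highest of the 9 in *Fth1*, *Ftl1*, *Trf* and *Ireb2* and the lowest in *Cp*, and its hepatocyte markers had the highest sum (63810). Control ASO replicate 2 was the lowest of the 9 in *Fth1*, *Ftl1* and *Slc40a1* and the highest in *Tfrc* and *Aco1*. The spread within a group was widest for *Hmox1* and *Fth1*, with coefficients of variation of 59.6% and 44.5% under apoC-III ASO and 52.8% and 61.5% under control ASO.

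Ratios between genes of a liver do not depend on how that liver was scaled, and 3 were compared with exact two-sided permutation tests adjusted over the 3. *Fth1* to *Ftl1*, the balance of ferritin chains, was 0.447, 0.236, 0.296, 0.245 and 0.266 with apoC-III ASO and 0.205, 0.234, 0.269 and 0.355 with control ASO. The groups overlapped broadly, and the mean log2 ratio differed by 0.15 (permutation p = 0.587, adjusted p = 0.587). Uncertainty about *Ftl1-ps1* touches this ratio too, most of all in control ASO replicate 4.

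*Tfrc* to *Fth1* sets the uptake receptor against the storage chain, transcripts on which the regulatory proteins act in opposite directions. The ratio was 0.0143, 0.0302, 0.0302, 0.0277 and 0.0198 with apoC-III ASO and 0.0733, 0.136, 0.0344 and 0.0207 with control ASO. Control ASO replicates 1, 2 and 3 lay above every treated liver, and control ASO replicate 4 lay among them. The mean log2 ratio was -5.41 ± 0.47 (SD, n = 5) with apoC-III ASO and -4.27 ± 1.2 (n = 4) with control ASO, a difference of -1.14 (exact permutation p = 0.111, adjusted p = 0.286). Without control ASO replicate 4 it was -1.58 (exact permutation p = 0.0357 before adjustment, the smallest for 5 against 3 livers).

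*Aco1* to *Ireb2*, the balance of the regulatory proteins' transcripts, was 1.69, 1.94, 3.45, 3.04 and 3.91 with apoC-III ASO and 4.0, 3.77, 2.28 and 7.22 with control ASO. The groups overlapped, since control ASO replicate 3 lay below 3 treated livers. The mean log2 ratio differed by -0.57 (exact permutation p = 0.190, adjusted p = 0.286). It was -0.29 (exact permutation p = 0.429) without control ASO replicate 4 and -0.84 (exact permutation p = 0.0714) without control ASO replicate 3, both before adjustment.

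**Figure D3:**
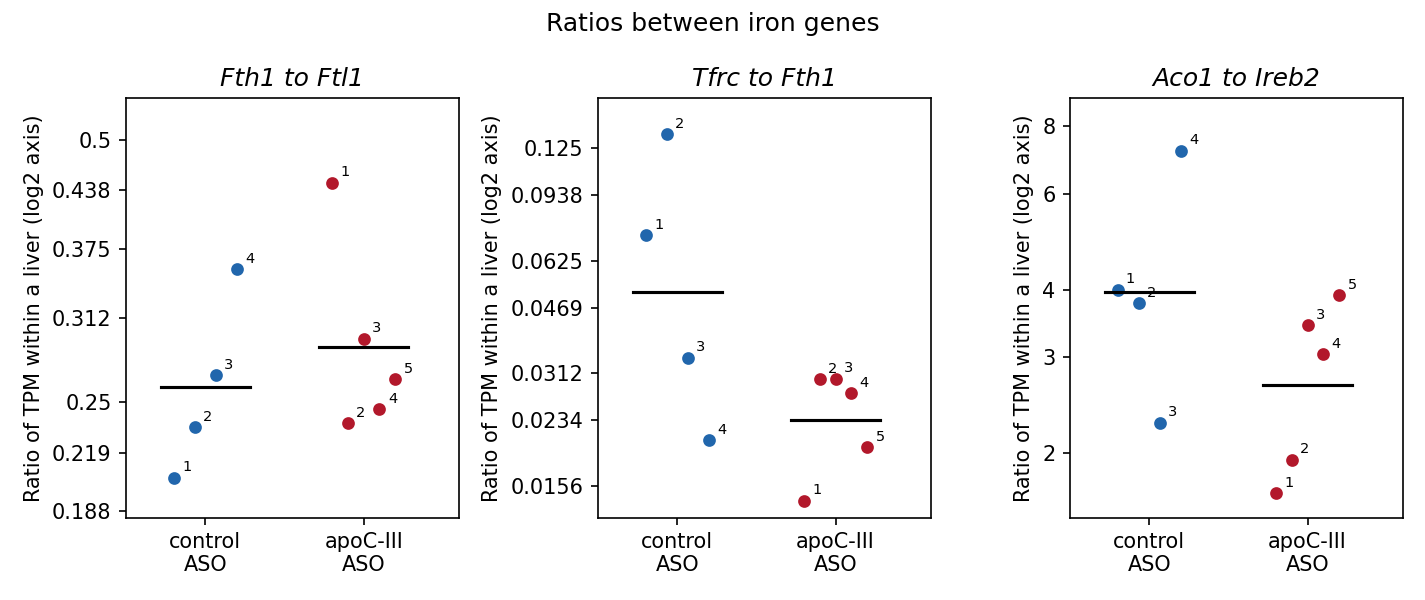
Ratios of TPM between the genes named above each panel (log2 axes) in 4 control ASO livers (blue) and 5 apoC-III ASO livers (red), with replicate numbers beside the points and lines at the mean of the log2 ratios. In the *Tfrc* to *Fth1* panel control ASO replicates 1 to 3 lie above all treated livers and control ASO replicate 4 lies among them.

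The 5′ hairpin genes beyond the 10 were compared as a description, and this set was formed after the values of *Fth1*, *Ftl1* and *Slc40a1* had been seen. Of the 31 genes with the 5′ hairpin 27 were tested, and 3 of these, the same ferritin and ferroportin genes, had a higher mean at an unadjusted p under 0.05. Of the other 24, 11 had a higher and 13 a lower mean, 0 had an unadjusted p under 0.05, 0 were called, and their median log2 fold change was -0.02. They include *Ftl1-ps1*, the copy of *Ftl1*, at 0.31 (limma, unadjusted p = 0.678). Without control ASO replicate 4 this copy was at 1.26 (limma, unadjusted p = 0.0107), so the count of 0 under that p depended on that liver. *Alas2*, the erythroid enzyme that starts heme synthesis, was also among the 24 (0.23, unadjusted p = 0.588 in limma). Among 92 tested genes with a 3′ hairpin, 4 had a higher and 2 a lower mean at that p, against 5.57% of all genes, with a median of -0.03.

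Other genes of iron and heme metabolism, in 6 lists of which 69 members were in the file and 64 were tested, had a median log2 fold change of -0.01. Of these 31 had a higher and 33 a lower mean, and 0 of 64 were called, against 0.0167% of all genes. An unadjusted p under 0.05 was reached by 3 of the higher and 4 of the lower, against 5.57% of all genes. That count of 7 was 4 without control ASO replicate 4 and 1 on TPM as deposited. The 7 were in 4 of the 6 lists, as follows.

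On rescaled TPM the 2 hepcidin genes were the members of these 64 whose groups did not overlap, against 1.83% of all genes. *Hamp*, the hormone itself, was at 1255, 839, 1053, 1321 and 1771 rescaled TPM with apoC-III ASO and 2443, 2047, 2020 and 2283 with control ASO (log2 fold change -0.86, limma, unadjusted p = 0.0048, adjusted p = 0.839), and *Hamp2*, its neighbouring copy, was at 9.21 to 44.5 and at 72.2 to 222 (-2.57, unadjusted p = 2.4e-04, adjusted p = 0.436). Every treated liver lay below every control in both, neither passed the adjusted test, and reads may be split between these similar copies.

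The list of iron uptake, reduction and sensing had 8 tested genes, 3 with a higher and 5 with a lower mean. *Steap4*, a reductase of iron and copper, averaged 18.5 ± 4.39 rescaled TPM with apoC-III ASO and 27.5 ± 5.94 with control ASO (log2 fold change -0.55, limma, unadjusted p = 0.037). *Slc39a14*, which brings in iron that is not bound to transferrin, differed by -0.19 (unadjusted p = 0.387), and *Slc39a8*, a related importer, by 0.16 (unadjusted p = 0.493). *Tfr2*, transferrin receptor 2, which takes part in iron sensing by hepatocytes and was the most abundant of the list, was at 208 ± 32.9 and 197 ± 48.6 (0.09, unadjusted p = 0.678, and 0.0021 without control ASO replicate 4).

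Cytosolic iron handling and ferritin turnover had 6 tested genes, of which 0 had an unadjusted p under 0.05. *Ncoa4*, the receptor that delivers ferritin for breakdown, was at 130 ± 58.0 rescaled TPM with apoC-III ASO and 150 ± 52.3 with control ASO (log2 fold change -0.25, limma, unadjusted p = 0.513). *Bola2* and *Glrx3*, partners in handing iron to acceptor proteins, differed by 0.49 (unadjusted p = 0.112) and 0.41 (unadjusted p = 0.219). *Fbxl5*, which marks iron regulatory protein 2 for degradation when iron is present, differed by -0.27 (unadjusted p = 0.419). With control ASO replicate 4 left out, *Ncoa4* differed by -0.09, *Glrx3* by 0.25 and *Fbxl5* by -0.12.

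Heme and hemoglobin scavenging, transport and breakdown had 10 tested genes, 5 with a higher and 5 with a lower mean and 0 with an unadjusted p under 0.05. *Slc46a1*, a folate carrier also described as a heme carrier, was at 6.52 ± 3.86 rescaled TPM with apoC-III ASO and 3.08 ± 0.96 with control ASO (log2 fold change 0.77, limma, unadjusted p = 0.051). Haptoglobin (*Hp*), which binds free hemoglobin, was at 3133 ± 1117 and 2614 ± 470 (0.21, unadjusted p = 0.462). *Hmox2*, the constitutive heme oxygenase, differed by 0.25 (unadjusted p = 0.366), and *Blvra*, which reduces the biliverdin that heme oxygenase makes, by -0.30 (unadjusted p = 0.383). The *Blvra* difference was 0.06 (unadjusted p = 0.797) and that of *Hmox2* 0.45 (unadjusted p = 0.103) without control ASO replicate 4. The *Slc46a1* difference was 0.62 (limma, unadjusted p = 0.129) without that liver, and its deposited values were at most 0.655 TPM.

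Heme synthesis had 14 tested genes, 6 with a higher and 8 with a lower mean. *Alad*, the enzyme after *Alas1* in the pathway, was at 32.0 ± 8.91 rescaled TPM with apoC-III ASO and 49.8 ± 6.78 with control ASO (log2 fold change -0.65, limma, unadjusted p = 0.018, adjusted p = 0.860). *Uros*, which closes the ring to uroporphyrinogen III, was at 26.8 ± 7.53 and 16.5 ± 4.79 (0.66, unadjusted p = 0.034, adjusted p = 0.876), so that the 2 enzymes differed in opposite directions and neither passed the adjusted test. *Alas1*, the rate-limiting enzyme in liver, ranged from 222 to 1519 with apoC-III ASO and from 434 to 1337 with control ASO (-0.65, unadjusted p = 0.237). *Abcb6*, a mitochondrial porphyrin transporter, differed by 0.33 (unadjusted p = 0.219). When control ASO replicate 4 was left out, *Uros* differed by 0.52 (unadjusted p = 0.093) and *Alas1* by -0.98 (unadjusted p = 0.094).

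Iron-sulfur cluster assembly had 24 tested genes, 14 with a higher and 10 with a lower mean and a median log2 fold change of 0.06. *Mms19*, which delivers clusters to nuclear proteins, was at 60.4 ± 30.3 rescaled TPM with apoC-III ASO and 30.4 ± 10.7 with control ASO (0.88, limma, unadjusted p = 0.033). *Hscb*, a co-chaperone of cluster transfer, was at 14.8 ± 9.43 and 6.38 ± 4.44 (1.15, unadjusted p = 0.038). Their groups overlapped. *Narfl*, a cytosolic assembly factor, differed by 0.40 (unadjusted p = 0.144), and *Hspa9*, the mitochondrial chaperone and most abundant of the list, by -0.08 (unadjusted p = 0.763). Without control ASO replicate 4 the difference was 0.12 (unadjusted p = 0.661) for *Hspa9*, 0.80 (unadjusted p = 0.073) for *Mms19* and 0.79 (unadjusted p = 0.127) for *Hscb*.

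**Figure D4:**
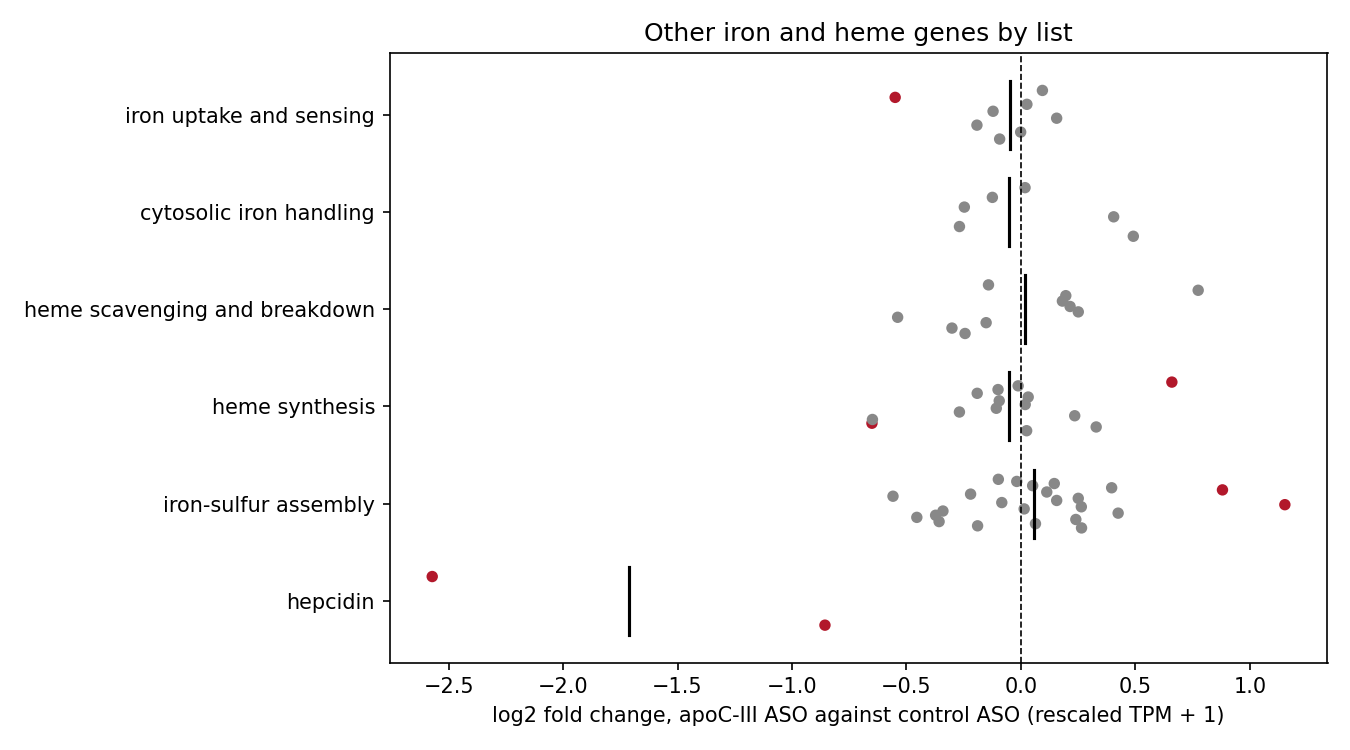
Log2 fold change of apoC-III ASO against control ASO (limma on log2(rescaled TPM + 1)) for the 64 tested genes of 6 iron and heme lists, with 1 point per gene and a vertical bar at the median of each list. Red marks the 7 genes with an unadjusted p under 0.05, and the 2 hepcidin genes are the points farthest below 0.

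Inflammation and oxidative stress also act on several of the 10 genes, as ceruloplasmin and hemopexin belong to the acute phase and ferritin and *Hmox1* to the targets of the stress factor NRF2. Of 17 tested acute phase genes 9 had a higher and 8 a lower mean, with a median log2 fold change of 0.01. On rescaled TPM *Orm3* was lower in every treated liver (4.57 ± 0.47 against 10.1 ± 4.20, -0.92, limma, unadjusted p = 0.0052, adjusted p = 0.842). It was the 1 gene of the 17 without overlap, against 1.83% of all genes. On TPM as deposited *Orm3* was at most 0.823 in any liver, and control ASO replicate 4 (0.086) lay below every treated liver (0.131 to 0.358). *Saa3* had the higher treated mean (58.1 ± 18.3 against 32.5 ± 14.8 rescaled TPM, 0.86, limma, unadjusted p = 0.024). Of 11 tested NRF2 targets 7 had a higher and 4 a lower mean, and 0 had an unadjusted p under 0.05. *Nqo1* was at 2.83 to 3.35 rescaled TPM with apoC-III ASO, 4.18 in control ASO replicate 4 and 1.25 to 1.40 in the other controls (0.57, limma, unadjusted p = 0.071, and 0.86, unadjusted p = 0.0022, without control ASO replicate 4). As deposited, *Nqo1* was at most 0.235 TPM in any liver, and control ASO replicate 4 (0.0404) was the lowest. Control ASO replicate 1 (0.102) then lay above apoC-III ASO replicate 5 (0.0965). *Gclc*, a subunit of the enzyme that starts glutathione synthesis, differed by 0.53 (limma, unadjusted p = 0.159).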

How the data were processed

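Livers of 5 apoC-III ASO and 4 control ASO mice were grouped by the labelled ASO target. The authors deposited TPM per gene, made with kallisto 0.43.1 and GRCm38 according to the submitters' processing notes. The methods describe STAR, featureCounts and DESeq2 on ribosomal RNA-depleted stranded libraries, and those counts were not used here. TPM keeps no depth, so no count test or counting interval was possible. Of the 51912 identifiers 51719 matched GENCODE M21 (99.6%). Rescaling used the 21857 nuclear protein-coding genes and the 12263 of them above 0 in all livers for median-of-ratios factors. This scale was used in place of TPM as deposited because protein-coding genes hold a small, uneven share of TPM.

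Differences were fitted with limma 3.58.1 (R 4.3.3, lmFit and eBayes with trend, no covariates) on log2(rescaled TPM + 1). Fold changes are on that scale, which understates changes of low genes. Ratios and *Apoc3* were tested in Python 3.11.15 with scipy 1.17.1. Steps were tested on simulated data. Nothing states whether replicates were processed separately, so p-values measure the spread between these samples.

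Named genes were the 10 members, *Apoc3*, *Apoe* and *Ndst1*, from each iron and heme list the 3 smallest p and the highest level, the hepcidin genes, 2 genes each of the acute phase and NRF2 lists, and ferritin copies. Genes with hairpins were named after their values were seen. The members and lists were chosen with earlier results of these data known. Alternatives were other scalings, a pseudocount of 0.1, a minimum mean of 5 or none, eBayes without trend, array weights, a replicate block, summed ferritin copies and each liver left out in turn. Leaving out 2 livers together, summing copies on the rescaled scale, settings for the count of other iron genes and the values of named genes without control ASO replicate 4 were added after seeing the data.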

Additional observations from a re-analysis of the deposited data

Results flagged for a closer look

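In groups of 4 or 5 livers, a sample was picked out when its gap to the nearest other exceeded Dixon's 95% critical value as a share of the group's range. Of 28 groups checked 3 were picked out, and chance picks about 1 in 20. *Cp* in apoC-III ASO replicate 1 was 520 rescaled TPM, against 806 to 862 in the other treated livers. *Aco1* in control ASO replicate 3 was 66.5, against 103 to 107 in the other controls, and it decided whether the groups overlapped. The ratio of *Fth1* to *Ftl1* in apoC-III ASO replicate 1 was 0.447, against 0.236 to 0.296 in the other treated livers.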

How the results depend on the processing

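None of the 10 genes was called under any alternative run. Of 190 differences recomputed under the alternatives, 14 changed sign, all among *Trf*, *Tfrc*, *Hpx*, *Cp*, *Hmox1* and *Aco1*, none of which had an unadjusted p under 0.05 in the reported fit. *Fth1*, *Ftl1* and *Slc40a1* stayed positive throughout, at 0.63 to 1.45, 0.52 to 1.30 and 0.58 to 1.22. The upper ends came from protein-coding rescaling without factors, where they were 1.04, 0.89 and 0.82 relative to the median of all genes.

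With TPM used as deposited the calls numbered 11, of which 5 were higher and 6 lower, against 0 higher and 2 lower, and 0 of 8 tested members had an unadjusted p under 0.05. The median of all genes shifted to 0.11, and *Trf* was at 0.18, *Hpx* at 0.17 and *Cp* at 0.14, that is 0.08, 0.07 and 0.03 relative to that median. Of the other iron and heme genes 1 had such a p. Protein-coding rescaling without factors called 1 gene and shifted the median to 0.41. *Trf* was then at 0.33, *Tfrc* at 0.28, *Hpx* at 0.32, *Cp* at 0.30 and *Aco1* at 0.15, all below that median, and 2 members did not overlap. No filter and eBayes without trend each called 1 gene.

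Leaving out 1 liver at a time gave 1 to 3 calls, 0 to 4 members with an unadjusted p under 0.05 and 0 to 2 without overlap. *Trf* ranged from -0.35 to 0.0086, *Hpx* from -0.31 to 0.021 and *Hmox1* from -0.19 to 0.34. The log2 ratio of *Fth1* to *Ftl1* ranged from -0.0014 to 0.30 and that of *Tfrc* to *Fth1* from -1.58 to -0.67, with exact permutation p from 0.0357 to 0.25. For the other iron and heme genes 2 such omissions were run, giving a count of 4 with control ASO replicate 4 left out and of 7 with the apoC-III ASO liver of that number left out. Without both replicates 4, 2 members did not overlap and *Hpx* was at 0.02.

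Samples with the same replicate number deviated together only weakly (correlations of 0.0673, 0.119, 0.028 and 0.19), and 1 of 4 pairs correlated best with its own number, so the numbers were taken as names. With a replicate block 1 gene was called higher and 2 lower, and 2 members had an unadjusted p under 0.05. Read depth is unknown, and low levels such as those of *Hmox1* and *Tfrc* carry a counting error that could not be given. The causes of these shifts were not tested.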
